A study of Mus musculus with 6 samples.

Results

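Collagens other than those of the cartilage fibril were examined in articular cartilage of 2-month-old and 18-month-old mice. The group was taken from the deposited gene table by symbol: every gene named Col, a number, a and a number that was not annotated as a pseudogene, without Col2a1, Col9a1, Col9a2, Col9a3, Col10a1, Col11a1 and Col11a2. This left 37 genes of the 44 collagen genes and of 33971 genes in all. There were 3 RNA sequencing libraries per age, labelled as cartilage of the WT genotype, and nothing in the labels says whether a library is 1 animal or a pool, so p-values measure the spread between these samples, which may be technical. The study's methods name male mice. The libraries held 48171507 to 59085179 counts. Levels are given as FPKM, which is the count scaled by gene length and by library size, and changes as log2 fold changes of 18-month over 2-month cartilage from edgeR on counts. A gene was called at a Benjamini-Hochberg adjusted p-value below 0.05 with a log2 fold change above 1 or below −1. Each carries a standard error (SE) derived from its F statistic. For single values compared by exact permutation, 3 libraries per age allow no p-value under 0.1.

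Collagens are secreted or membrane proteins in which 3 chains wind into a triple helix. Fibrillar collagens such as types I, III and V form the cross-linked fibrils of bone, tendon and skin, while type II takes that place in hyaline cartilage. Type IV forms the sheet-like network of basement membranes, which in cartilage are reduced to components of the pericellular matrix. Type VI forms beaded filaments that mark the pericellular matrix around each chondrocyte, and the FACIT collagens sit on the surface of fibrils and link them to other matrix molecules.

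Chondrocyte markers were low, and blood cell markers present, in the libraries labelled 18-month cartilage. A list of 14 chondrocyte genes, led by Cytl1, made up between 2.57% and 4.14% of each young library. At 18 months it took 0.320% in replicate 1, 0.0766% in replicate 2 and 0.0760% in replicate 3. All 14 were called lower, where 21.3% of all genes tested were called lower. Epyc, a small proteoglycan of growth cartilage, had no count at 18 months. A list of 12 neutrophil genes, led by S100a9, took 4.16% to 4.48% of the counts at 18 months, against 0.00128%, 0.371% and 0.00581% in 2-month replicates 1, 2 and 3. With all libraries edgeR called 0 of these 12 genes, while DESeq2 called 10 higher and limma 12. Without 2-month replicate 2 edgeR called all 12 higher, where 23.3% of all genes then tested were called higher. Xist, the transcript of the inactive X chromosome, had an FPKM of 89.5 to 101 at 2 months and of 0.00875 to 0.0261 at 18 months. Age, the sex pattern of the libraries and their cell make-up cannot be told apart in this design. In bulk tissue, fewer cells of a type and less RNA per cell cannot be told apart either.

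Most of these collagens were lower in 18-month cartilage. Of the 37 genes, 35 passed the filter on low counts, 20 were called lower and 0 higher, where 21.3% of the 20397 genes tested were called lower and 14.9% higher. At an unadjusted p-value below 0.05 edgeR gave 21 genes, all of them lower. Limma also called 0 higher, so the same holds in each class below. DESeq2 called 0 higher too, but it gave no adjusted p-value for Col1a1, Col1a2, Col13a1 and Col22a1. It could therefore not have called those genes. The median log2 fold change of the 35 genes was −2.13, beside −0.02 for all genes tested. In CPM, which are counts scaled to library size, 22 genes were lower in every 18-month library than in every 2-month library and 0 were higher, where 32.9% of all genes tested were lower without overlap. The called falls ran from −4.81 for Col4a5 to −1.34 for Col14a1 on the log2 scale.

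The exceptions turned on 1 library. Without 2-month replicate 2, edgeR called 6 of the 35 genes higher, namely Col1a1, Col1a2, Col8a1, Col13a1, Col22a1 and Col28a1, where 23.3% of the 21489 genes then tested were higher. It called 19 lower, where 21.3% of all genes were lower, and all 19 were among the 20 called with every library. Col14a1 was the gene that lost its call. The direction of change for type I collagen and a few others is therefore given below with and without that library.

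Adding up FPKM over all 44 collagens gave the make-up of the collagen transcripts per length in each library. The 37 genes held 10.9%, 29.0% and 12.6% of that sum in 2-month replicates 1, 2 and 3, and 72.3%, 88.9% and 89.0% at 18 months. The groups did not overlap, with a mean share of 17.5% ± 10.004 in young and 83.4% ± 9.63 in old cartilage (SD, n = 3 each; exact permutation test, p = 0.1, two-sided, the smallest possible). Col1a1 and Col1a2, the chains of type I collagen, alone went from 1.01%, 20.7% and 1.72% to 59.2%, 79.6% and 79.9%. The summed FPKM of all collagens was lower at 18 months, at 642 to 849.6 against 5157 to 10804. The sum over the 37 genes was 559.8, 3132 and 766 at 2 months and 614, 571 and 582 at 18 months, so the ages overlapped in it.

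**Figure D1:**
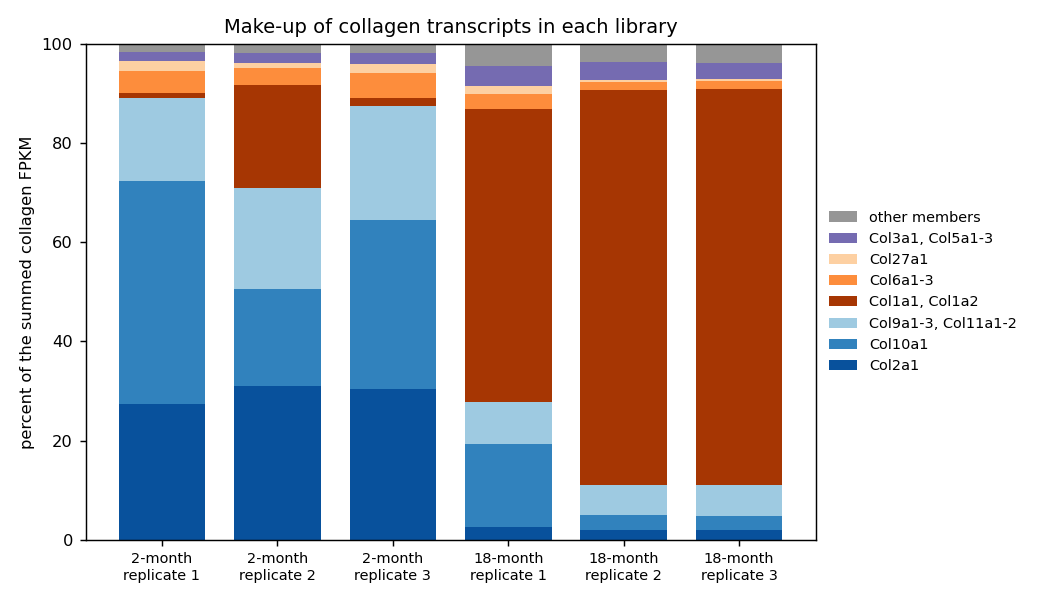
Percent of the summed FPKM of 44 collagens held by each gene or gene group, as stacked bars, for each of the 6 libraries. Blue shades are cartilage fibril collagens, and the dark red block of Col1a1 and Col1a2 covers 59.2% to 79.9% of the 18-month bars and 1.01% to 20.7% of the 2-month bars.

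Most fibrillar collagens fell, while both type I genes and Col5a3 did not pass the test. Of 8 genes, 5 were called lower and 0 higher, and the median log2 fold change was −2.05. Col1a1 (ENSMUSG00000001506, chromosome 11, 94936224 to 94953042, plus strand) encodes the main chain of type I collagen, the fibril of bone and tendon. Its FPKM was 29.3, 1420.3 and 60.0 in 2-month replicates 1, 2 and 3, and 285, 279 and 286 at 18 months. The 3 old libraries were nearly alike and lay between the very high 2-month replicate 2 and the other young libraries. The mean FPKM was 503 ± 794 in young and 283 ± 3.58 in old cartilage (SD, n = 3 each), with a log2 fold change of −0.82 (SE 1.36, edgeR adjusted p = 0.638). Without 2-month replicate 2 it was 2.56 (SE 0.35, edgeR adjusted p = 0.00180), and Col1a1 was called higher. Col1a2 (ENSMUSG00000029661, chromosome 6, 4504814 to 4541544, plus strand), the partner chain, had the same order, with FPKM of 23.0, 817 and 44.5 at 2 months and 218, 232 and 236 at 18 months. Its log2 fold change was −0.36 (SE 1.26, edgeR adjusted p = 0.827), and 2.66 (SE 0.34, edgeR adjusted p = 0.00136) without 2-month replicate 2.

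Type III and 4 of the 5 minor fibrillar genes were called lower. Col27a1 (ENSMUSG00000045672, chromosome 4, 63214004 to 63333749, plus strand), a fibrillar collagen made by chondrocytes, had FPKM of 103, 119.6 and 111 at 2 months and 13.4, 2.41 and 2.43 at 18 months. The young libraries were close together, and old replicate 1 was well above the other old ones. The log2 fold change was −4.29 (SE 0.80, edgeR adjusted p = 0.00760). Col3a1 (chromosome 1, 45311538 to 45349706, plus strand), the type III collagen of pliable connective tissue, had FPKM of 34.4, 67.1 and 60.1 at 2 months and 5.41, 1.33 and 1.46 at 18 months. Its log2 fold change was −4.38. Col5a2 (chromosome 1, 45374321 to 45503282, minus strand), a chain of the type V collagen that starts type I fibrils, had FPKM of 35.1, 85.6 and 40.8 at 2 months and 17.8, 13.0 and 12.05 at 18 months. Here 2-month replicate 2 stood above the other young libraries and the ages did not overlap. The log2 fold change of Col5a2 was −1.97 (SE 0.35, edgeR adjusted p = 0.00674). Col5a1, the other main chain of type V, had FPKM of 24.8, 44.6 and 27.5 at 2 months and 9.36, 7.03 and 6.80 at 18 months, and was called lower. So was Col24a1, at 15.3, 18.3 and 13.5 against 3.63, 1.39 and 1.72. Col5a3, a minor type V chain, overlapped between the ages, at 1.02, 5.34 and 3.26 against 2.85, 1.64 and 1.46, and was not called.

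**Figure D2:**
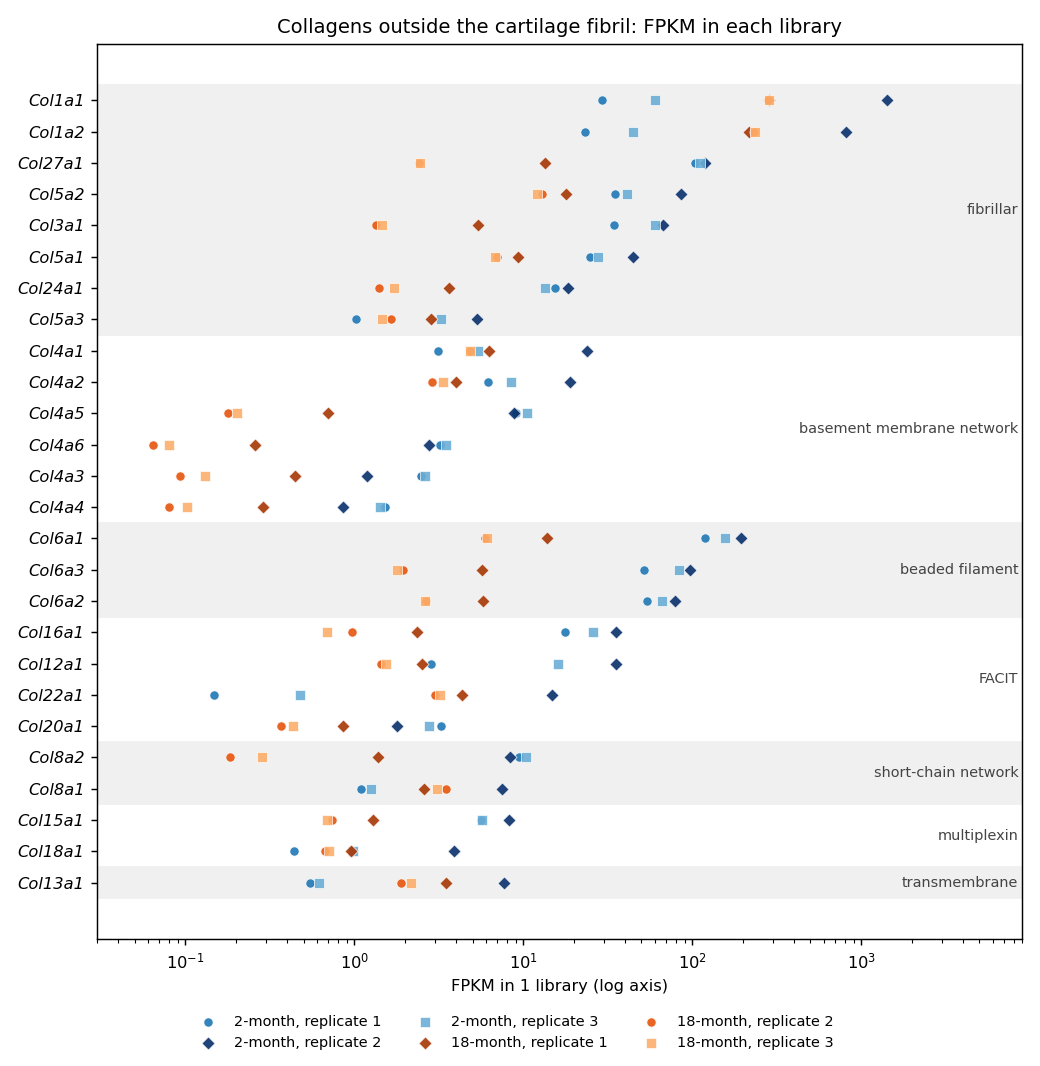
FPKM on a log axis in each library for the 26 genes whose mean FPKM reached 1 at either age, ordered by class and level. Blue symbols are 2-month and orange symbols 18-month libraries, and diamonds mark 2-month replicate 2 and 18-month replicate 1, which stand away from their group in many rows, such as Col1a1 with 1420.3 in 2-month replicate 2 and Col27a1 with 13.4 in 18-month replicate 1.

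The 6 type IV genes lie in the genome as 3 pairs of genes that start next to each other and run apart, and their log2 fold changes ran from −4.81 to −1.05. Of the 6 genes, 5 were called lower and 0 higher, with a median log2 fold change of −3.23. Col4a5 and Col4a6 had the largest falls. Their start sites lie 1309 bases apart on the X chromosome, with Col4a5 (ENSMUSG00000031274) from 141475385 to 141689234 on the plus strand and Col4a6 (ENSMUSG00000031273) from 141165403 to 141474076 on the minus strand. Col4a5 had FPKM of 9.10, 8.82 and 10.5 at 2 months and 0.697, 0.180 and 0.202 at 18 months. Col4a6 had FPKM of 3.20, 2.76 and 3.50 at 2 months and 0.259, 0.0644 and 0.0798 at 18 months. Young libraries were alike for both, replicate 2 included, and old replicate 1 was above the other old libraries. The log2 fold change was −4.81 for Col4a5 (SE 0.62, edgeR adjusted p = 0.00258) and −4.63 for Col4a6 (SE 0.61, edgeR adjusted p = 0.00275). Both are X-linked, and the part of the Xist difference between the ages in their values was not tested.

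Col4a3 and Col4a4, whose start sites are 72 bases apart on chromosome 1, encode chains of the type IV network best known from the kidney glomerulus. Col4a3 had FPKM of 2.48, 1.19 and 2.62 at 2 months and 0.445, 0.0922 and 0.130 at 18 months. Col4a4 had FPKM of 1.52, 0.853 and 1.41 at 2 months and 0.289, 0.0801 and 0.102 at 18 months. In both, 2-month replicate 2 was the lowest young library, which is the opposite of type I collagen. Both were called lower, with log2 fold changes of −3.35 and −3.10. Col4a1 and Col4a2, which build the network of nearly all basement membranes including those of vessels, overlap by 22 bases at their starts on chromosome 8. Col4a1 had FPKM of 3.13, 23.8 and 5.36 at 2 months and 6.27, 4.81 and 4.84 at 18 months. Apart from 2-month replicate 2 the ages lay in the same range. The log2 fold change was −1.05 (SE 0.71, edgeR adjusted p = 0.260), and 0.21 (SE 0.25, edgeR adjusted p = 0.499) without that library. Col4a2 had FPKM of 6.21, 18.8 and 8.50 at 2 months and 4.02, 2.89 and 3.35 at 18 months, and the ages did not overlap. Its log2 fold change was −1.76 (SE 0.40, edgeR adjusted p = 0.0141). It lost its call without 18-month replicate 2 (edgeR adjusted p = 0.0578) and without 18-month replicate 3 (edgeR adjusted p = 0.0543), and over all fits with 1 library left out its log2 fold change ran from −2.03 to −1.21.

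**Figure D3:**
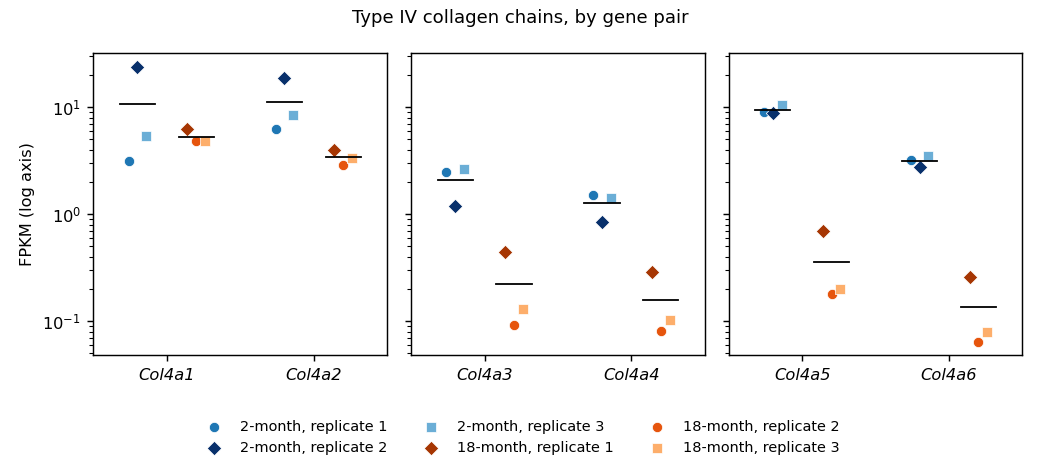
FPKM on a log axis of the type IV genes in each library, with 1 panel for each gene pair, points for libraries and a short line for the mean of each age. The Col4a5 and Col4a6 panel shows the widest gap between ages, and in the Col4a1 column the 18-month points of 4.81 to 6.27 lie among the 2-month points.

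Type VI collagen, the filament around chondrocytes, was among the most abundant of these collagens at 2 months and fell in all 3 main chains. Col6a1 (ENSMUSG00000001119, chromosome 10, 76708792 to 76726168, minus strand) had FPKM of 119.7, 195 and 156 at 2 months and 13.9, 5.93 and 6.08 at 18 months. Col6a2 (ENSMUSG00000020241, chromosome 10, 76595762 to 76623630, minus strand) had FPKM of 53.8, 79.4 and 66.6 at 2 months and 5.76, 2.66 and 2.62 at 18 months. Col6a3 (ENSMUSG00000048126, chromosome 1, 90765923 to 90843971, minus strand) had FPKM of 51.7, 97.0 and 83.6 at 2 months and 5.72, 1.94 and 1.78 at 18 months. No 18-month library reached a 2-month library, and in each gene old replicate 1 was above the other old libraries. The log2 fold change was −4.26 for Col6a1 (SE 0.42, edgeR adjusted p = 0.00153), −4.26 for Col6a2 (SE 0.38, edgeR adjusted p = 0.00127) and −4.70 for Col6a3 (SE 0.59, edgeR adjusted p = 0.00240). Without 2-month replicate 2 these values were −4.12, −4.15 and −4.55. The later chains Col6a4, Col6a5 and Col6a6, which lie side by side on chromosome 9, had FPKM of at most 0.122 in every library. Col6a4 did not pass the filter, and Col6a5 and Col6a6 were not called.

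Among the FACIT collagens, 4 of 5 tested genes were called lower and 0 higher, with a median log2 fold change of −2.33. Col16a1 (chromosome 4, 130047840 to 130099283, plus strand), which occurs on cartilage fibrils, had FPKM of 17.7, 35.6 and 25.7 at 2 months and 2.36, 0.972 and 0.688 at 18 months. Every young library was above every old one, and the log2 fold change was −4.37 (SE 0.55, edgeR adjusted p = 0.00249). Col12a1, which binds type I fibrils in tendon and ligament, was uneven at 2 months, with FPKM of 2.83, 35.4 and 16.1 against 2.52, 1.44 and 1.54 at 18 months. Young replicate 1 was close to old replicate 1. Its log2 fold change was −3.35 (SE 0.87, edgeR adjusted p = 0.0223). The call was lost in 4 of the 6 fits with 1 library left out, without 2-month replicate 3 and without each 18-month library, where the edgeR adjusted p ran from 0.0548 to 0.0817. Col20a1 had FPKM of 3.24, 1.79 and 2.76 at 2 months and 0.852, 0.369 and 0.434 at 18 months, with a log2 fold change of −2.33 (SE 0.43, edgeR adjusted p = 0.00702). A transcript on the same strand, 9230112E08Rik, shares exon bases with Col20a1 and had a mean count of 517 beside 469 for Col20a1, so reads of the pair may have been divided between them.

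Col22a1 (ENSMUSG00000079022, chromosome 15, 71795795 to 72034227, minus strand), a FACIT collagen known from tissue junctions such as that of muscle and tendon, had the library order of type I collagen. It had FPKM of 0.148, 14.8 and 0.474 at 2 months and 4.34, 3.00 and 3.20 at 18 months. Again the old libraries lay between 2-month replicate 2 and the other young libraries. The log2 fold change was −0.55 (SE 1.49, edgeR adjusted p = 0.780), and 3.37 (SE 0.53, edgeR adjusted p = 0.00305) without 2-month replicate 2. Col14a1 stayed at an FPKM of 0.308 to 1.33 in all libraries. It was called lower with all libraries and in only 1 of the 6 fits that left out a library. Col19a1 did not pass the filter, and its FPKM was at most 0.0291.

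The small network collagens of type VIII, known from the membrane beneath the corneal endothelium and from vessel walls, included 1 gene that fell. Col8a2 had FPKM of 9.47, 8.31 and 10.4 at 2 months and 1.37, 0.183 and 0.284 at 18 months, with a log2 fold change of −4.04 (SE 0.83, edgeR adjusted p = 0.0101). Col8a1 had FPKM of 1.10, 7.43 and 1.26 at 2 months and 2.60, 3.48 and 3.09 at 18 months. Its log2 fold change was −0.11 (SE 0.73, edgeR adjusted p = 0.908), and 1.27 (SE 0.19, edgeR adjusted p = 0.00267) without 2-month replicate 2. The multiplexins, which carry anti-angiogenic fragments at their ends, also included 1. Col15a1 was called lower, with FPKM of 5.59, 8.27 and 5.70 against 1.29, 0.732 and 0.684 and a log2 fold change of −2.92 (SE 0.29, edgeR adjusted p = 0.00153). Col18a1, the source of endostatin, had FPKM of 0.437, 3.91 and 0.975 at 2 months and 0.956, 0.666 and 0.705 at 18 months. It was not called, at −1.22 (SE 0.75, edgeR adjusted p = 0.219), and its value was 0.03 without 2-month replicate 2.

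No transmembrane collagen was called among 4 tested with all libraries. Col13a1, which sits at cell adhesions and at the muscle synapse, had FPKM of 0.547, 7.70 and 0.620 at 2 months and 3.49, 1.89 and 2.16 at 18 months. Its log2 fold change was −0.24 (SE 1.03, edgeR adjusted p = 0.857), and 1.98 (SE 0.31, edgeR adjusted p = 0.00286) without 2-month replicate 2. Col17a1 of the hemidesmosome, Col23a1 and Col25a1 had FPKM of at most 0.892 in every library. Col7a1, the anchoring fibril of skin, had FPKM of 0.181 to 0.319 and a log2 fold change of −0.26. Of the remaining genes Col26a1 was called lower at an FPKM of at most 0.278. Col28a1 was the only one of the 35 with a fold change above 0 in the fit of all libraries, at 1.298 (edgeR adjusted p = 0.183), with an FPKM of at most 0.177.

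**Figure D4:**
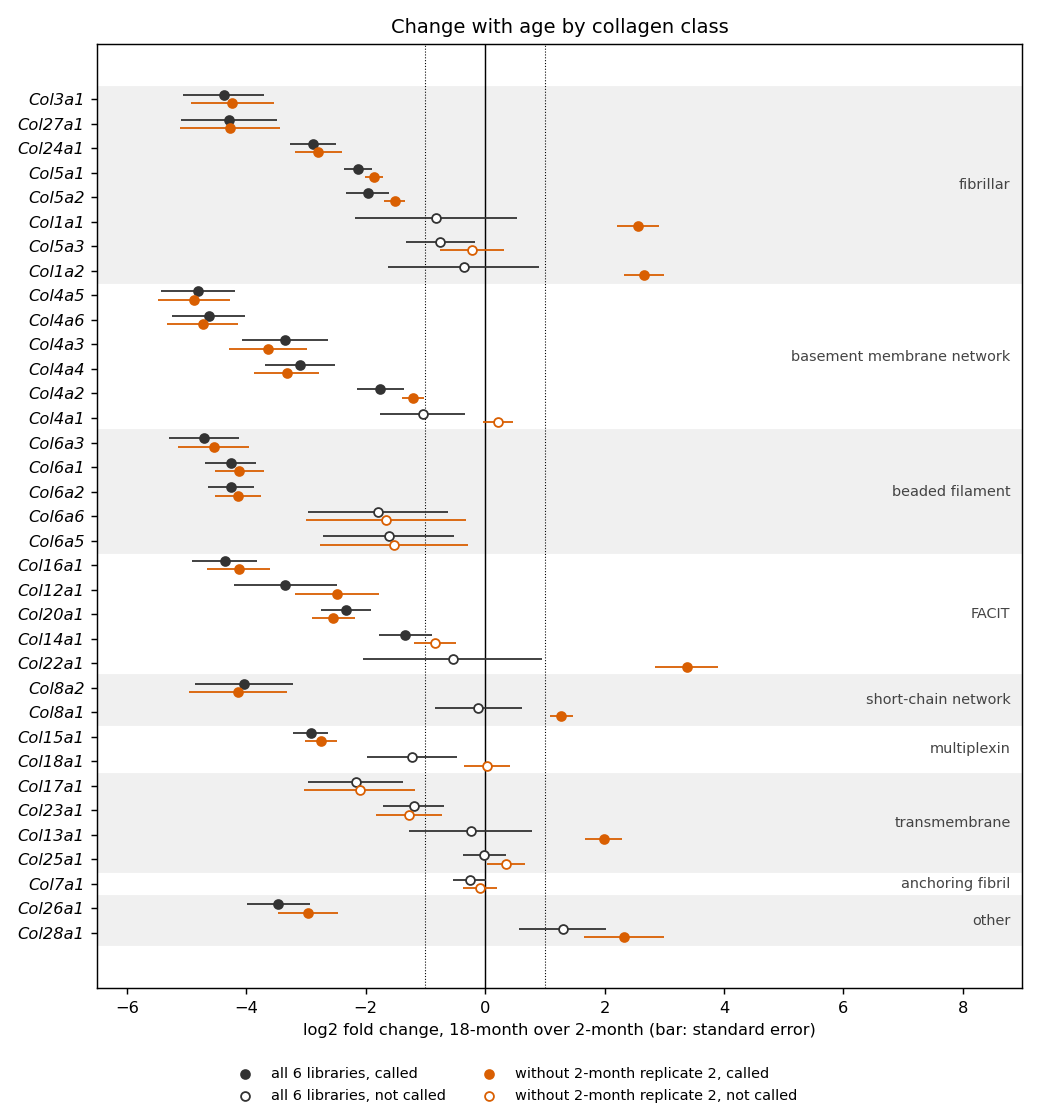
Log2 fold change of 18-month over 2-month cartilage with its standard error for the 35 tested genes by class, from all 6 libraries (dark) and without 2-month replicate 2 (orange). Filled points were called, and the dotted lines are the limits of −1 and 1. The dark and orange points stay close for type VI and for Col4a5, while Col1a1 moves from −0.82 to 2.56 and Col22a1 from −0.55 to 3.37.

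Col1a1, Col1a2, Col8a1, Col13a1 and Col22a1 shared an order of libraries in CPM: 2-month replicate 2 above every 18-month library, and every 18-month library above the other 2-month libraries. This order was chosen after the values were seen. It held for 5 of the 35 genes, and for 3.3% of all genes tested. CPM in 2-month replicate 2 were 31.1 times the mean of the other young libraries for Col1a1, 23.7 times for Col1a2, 46.2 times for Col22a1, 12.8 times for Col13a1 and 6.17 times for Col8a1. For Col4a1 and Col18a1 they were 5.48 and 5.42 times. For Col4a5, Col4a6, Col8a2 and Col27a1 they were 0.883, 0.811, 0.822 and 1.10 times.

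Among marker lists, that order was found for osteoclast genes and not for endothelial or osteoblast genes. A list of 12 endothelial genes, led by Plvap, took 0.00245%, 0.0413% and 0.00686% of the counts in 2-month replicates 1, 2 and 3, and 0.0420% to 0.0488% at 18 months, so replicate 2 was far above the other young libraries and just under the old ones. With all libraries 2 of the 12 were called higher, and 11 without 2-month replicate 2, where 14.9% and 23.3% of all genes tested were called higher. The 8 osteoclast genes, led by Ctsk, took 0.00703%, 0.598% and 0.101% at 2 months and 0.245% to 0.279% at 18 months, and edgeR, DESeq2 and limma called 0 of them, as did edgeR at an unadjusted p-value below 0.05. The 12 osteoblast and osteocyte genes took 0.610%, 0.773% and 0.720% at 2 months and 0.133% to 0.153% at 18 months. Of them, 4 were called lower, where 21.3% of all genes tested were called lower. Within that list, Bglap, which encodes osteocalcin, had FPKM of 118, 714 and 90.0 against 295, 319 and 310 at 18 months, and Ibsp, the bone sialoprotein gene and the most abundant of the list, 1360.3, 1621 and 1484 against 182, 194 and 192. Bglap was chosen after its values were seen. No endothelial, osteoblast or osteoclast gene of these lists was at 0 in all libraries of an age, and the part of those cells in the collagen values was not tested.

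Old replicate 1 stood out in a second way. It was the highest 18-month library in CPM for 28 of the 35 genes, and for 19 of the 20 called lower. The same share over all genes tested was not computed, so these counts do not show a trait of the collagens. CPM of single genes differed widely in how far this library stood out. The CPM of old replicate 1 were 5.49 times the mean of the other old libraries for Col27a1, 5.82 times for Col8a2, 3.85 times for Col3a1 and 2.30, 2.17 and 3.06 times for Col6a1, Col6a2 and Col6a3. For Col1a1 the value was 1.01 times. The chondrocyte list was at 0.320% of counts in that library, against 0.0766% and 0.0760% in the others, and its part in these values was not tested. Without old replicate 1, Col27a1, Col8a2, Col3a1 and the 3 type VI genes were still called lower.

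Promoter sequences were taken from RefSeq on GRCm38.p6, where 30 of the 37 genes were found. Col1a1, Col4a3, Col5a2, Col12a1, Col14a1, Col22a1 and Col26a1 were not. The 100 bases before the start site are shown for genes that fell in every fit with 1 library left out (Col3a1, Col6a3 and Col4a6) and for genes whose direction turned on 2-month replicate 2 (Col8a1 and Col13a1), so that both kinds can be compared. They lie at chr1:45311438-45311537 on the plus strand, and on the minus strand at chr1:90843972-90844071, chrX:141474077-141474176, chr16:57754738-57754837 and chr10:61979109-61979208, written 5′ to 3′. Capitals mark GGGCGG on either strand, the letters of a GC box, which may overlap.
Col3a1: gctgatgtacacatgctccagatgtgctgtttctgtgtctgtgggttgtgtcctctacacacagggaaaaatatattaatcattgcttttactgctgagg
Col6a3: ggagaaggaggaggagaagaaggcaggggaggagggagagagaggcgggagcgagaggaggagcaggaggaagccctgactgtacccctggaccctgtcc
Col4a6: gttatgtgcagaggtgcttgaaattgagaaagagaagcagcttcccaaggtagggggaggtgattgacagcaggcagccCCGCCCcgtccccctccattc
Col8a1: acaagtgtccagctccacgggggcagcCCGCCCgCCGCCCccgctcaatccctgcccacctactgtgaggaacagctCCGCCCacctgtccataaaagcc
Col13a1: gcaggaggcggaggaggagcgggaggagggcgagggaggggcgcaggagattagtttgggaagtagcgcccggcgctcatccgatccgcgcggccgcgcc

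Within these 100 bases GGGCGG was found on either strand in 15 of the 30 promoters, beside 24.7% of the 32851 mouse promoters in that table. CCAAT was found in 2 of 30, beside 18.9%, and TATAAA in 1 of 30, beside 5.56%. In a wider window of 250 bases, CCAAT was found in 11 of 30, beside 33.8%, and TATAAA in 3 of 30, beside 12.4%. GGGCGG was found there in 18 of 30, beside 32.7%. Among the genes shown, Col4a6, which fell, and Col8a1, which turned on 1 library, hold GGGCGG, while Col3a1, Col6a3 and Col13a1 do not. A match is a description of letters only.

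Ratios between chains within a library do not depend on library scaling, and 7 were computed. The Col3a1 to Col1a1 ratio in FPKM was 1.17, 0.0473 and 1.001 at 2 months and 0.0190, 0.00478 and 0.00511 at 18 months. The ages did not overlap (log2 difference −5.62, exact permutation p = 0.1, adjusted p = 0.175 over the 7 ratios). The Col1a1 to Col2a1 ratio, of bone-type to cartilage-type fibril, was 0.0207, 0.423 and 0.0325 at 2 months and 13.4, 21.8 and 22.2 at 18 months, a log2 difference of 8.15 with the same p-values. Chains that join in a trimer were compared next. The Col6a1 to Col6a2 ratio was 2.23, 2.45 and 2.35 at 2 months and 2.41, 2.22 and 2.33 at 18 months, and the log2 difference of −0.01 was within the spread of the libraries (SD 0.07 at 2 months and 0.06 at 18 months; exact permutation p = 0.7). The Col1a1 to Col1a2 ratio was 1.27, 1.74 and 1.35 against 1.31, 1.20 and 1.21, with a log2 difference of −0.21 (exact permutation p = 0.2), and it was below 1 in every library per base of the longest coding transcript. For Col5a1 to Col5a2 the log2 difference was −0.21 (exact permutation p = 0.4). Col6a3 to Col6a1 was lower in all old libraries, at 0.431, 0.498 and 0.534 against 0.412, 0.327 and 0.292, and Col4a1 to Col4a2 was higher, at 0.504, 1.26 and 0.631 against 1.56, 1.67 and 1.44 (exact permutation p = 0.1 for both). No ratio passed an adjusted p of 0.05, which this design cannot reach.

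Genes that fold, cut, cross-link and bind collagen were also mostly lower. Over all genes tested, edgeR called 21.3% lower and 14.9% higher. Without 2-month replicate 2 these shares were 21.3% and 23.3%. Of 20 genes for collagen folding and modification, 15 were called lower and 1 higher, with a median log2 fold change of −2.88. P4hb, a subunit of prolyl 4-hydroxylase and the most abundant of them, had FPKM of 890.1, 468 and 602 at 2 months and 199.6, 147 and 145 at 18 months, a log2 fold change of −2.09 (SE 0.33, edgeR adjusted p = 0.00443). P4ha2, a catalytic subunit of the same enzyme, had the largest fall, at −5.02 (SE 0.81, edgeR adjusted p = 0.00478). The gene that rose was Tmem38b, an ion channel of the endoplasmic reticulum, with FPKM of 3.72, 5.70 and 4.49 against 13.3, 12.6 and 11.8 and a log2 fold change of 1.37 (SE 0.15, edgeR adjusted p = 0.00175).

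At an unadjusted p-value below 0.05 the processing, fibril surface and basement membrane lists below held 0 higher genes in edgeR, and DESeq2 called 1 basement membrane gene higher. Of 15 tested genes for procollagen processing and cross-linking, 10 were called lower and 0 higher, with a median of −2.58. Without 2-month replicate 2 these were 9 lower and 1 higher, the latter being Loxl1, a lysyl oxidase of elastic fibres, at 1.17 instead of −0.05. Loxl4, a lysyl oxidase of collagen cross-links, had FPKM of 299, 177 and 225 at 2 months and 2.99, 1.74 and 1.76 at 18 months, and a log2 fold change of −6.85 (SE 0.41, edgeR adjusted p = 0.000749). Pcolce2, an enhancer of C-propeptide cleavage, had the largest fall, at −7.06 (SE 0.80, edgeR adjusted p = 0.00191). Among 17 tested partners on the fibril surface 13 were lower and 0 higher, with a median of −2.63, and without 2-month replicate 2 there were 14 lower and 1 higher. Comp, a pentameric matrix protein of cartilage, and Fmod, a small leucine-rich proteoglycan, had log2 fold changes of −5.74 (SE 0.80, edgeR adjusted p = 0.00315) and −6.09 (SE 0.49, edgeR adjusted p = 0.00107). Tnc, the tenascin C gene, was chosen after its values were seen. Its FPKM was 2.16, 80.7 and 5.64 at 2 months and 44.9, 36.2 and 35.9 at 18 months, which is the order of libraries found for type I collagen. Loxl1, Adamts2 and Adamts14 of the processing list, Nid1 of the basement membrane partners and Oscar of the receptors had that order in FPKM too. For Tnc the log2 fold change was 0.40 (edgeR adjusted p = 0.801), and 3.21 (edgeR adjusted p = 0.00212) without 2-month replicate 2.

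Of 20 basement membrane partners 14 were lower and 0 higher, with a median of −1.44, and without 2-month replicate 2 there were 12 lower and 0 higher. Sparc, a collagen-binding glycoprotein of bone and basement membrane, had FPKM of 4447, 6274 and 6325 at 2 months and 406, 377 and 374 at 18 months, a log2 fold change of −3.96 (SE 0.39, edgeR adjusted p = 0.00153). Hspg2, which encodes perlecan, a proteoglycan found with type VI collagen around chondrocytes, had the largest fall of those with an FPKM of at least 1, at −4.44 (SE 0.23, edgeR adjusted p = 0.000706). Of 12 collagen receptors 6 were lower and 2 higher, with a median of −0.95, where 14.9% of all genes tested were called higher. Without 2-month replicate 2 there were 6 lower and 3 higher, where 23.3% of all genes then tested were called higher. Both counts of higher receptors were near the share over all genes. The added gene was Itga2, an integrin subunit that binds collagen, at 2.54 instead of 1.28. Itgb1, the shared integrin subunit, had FPKM of 108, 109 and 95.5 at 2 months and 82.8, 76.1 and 78.2 at 18 months, and its log2 fold change of −0.48 was not past the fold limit. The largest fall was that of Cspg4, a type VI collagen-binding proteoglycan, at −4.65 (SE 0.75, edgeR adjusted p = 0.00471). The 2 that rose were Gp6, the platelet collagen receptor, and Lair1, a leukocyte receptor. Gp6 had FPKM of 0, 0.422 and 0.0170 at 2 months and 6.97, 8.41 and 8.98 at 18 months, with a log2 fold change of 5.78 (SE 1.63, edgeR adjusted p = 0.0294). Without 2-month replicate 2 it was 9.65, a value that rests on young libraries at or near 0, and that of Lair1 was 5.76 instead of 3.94. Loxl1, Itga2 and Lair1 were chosen after their values were seen. Beside it, the 8 megakaryocyte marker genes, which include Gp6 and are led by Ppbp, took 0.000528%, 0.00706% and 0.000787% of the counts at 2 months and 0.140% to 0.209% at 18 months, and their part in it was not tested.

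**Figure D5:**
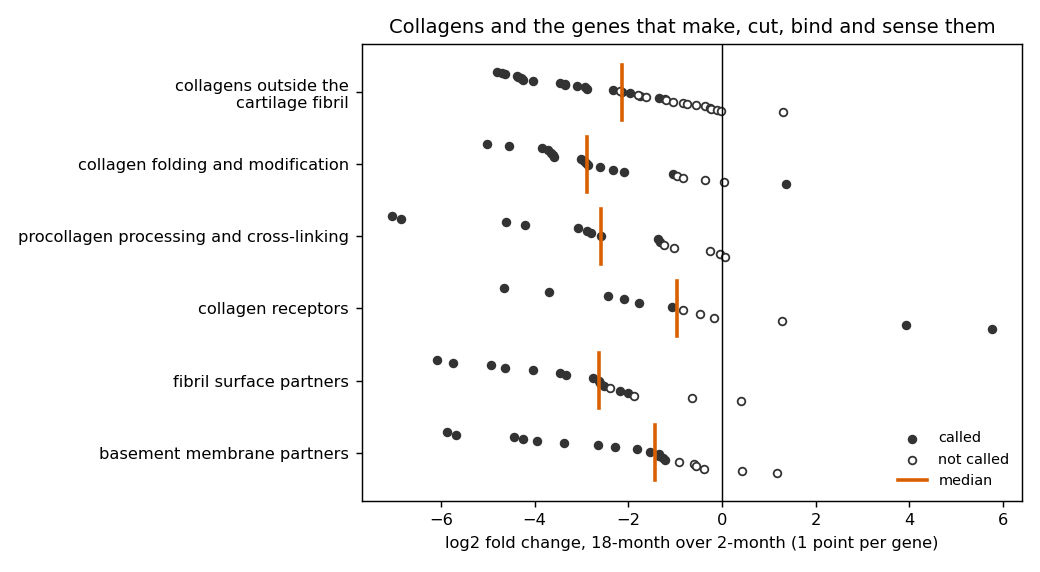
Log2 fold change of each tested gene (1 point per gene; filled if called) for the collagens outside the cartilage fibril and for 5 lists of genes that act on collagen, with an orange line at the median of each. Medians lie between −2.88 for folding and modification and −0.95 for receptors, and the points on the right in the receptor row include Gp6 at 5.78.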

How the data were processed

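Poly(A) RNA of 3 libraries per age had been made into strand-marking (dUTP) libraries with molecular identifiers and sequenced from both ends. The authors deposited a single file with whole-number counts per gene, not normalized, and FPKM per gene as scaled by the authors. Levels of different genes on that scale depend on the gene length used. The submitters' processing notes name cutadapt 1.9, HISAT2 2.0.4, UMI-tools, StringTie 1.3.4d, DESeq2 and edgeR without roles. The genome build and annotation are not given in the sources used here. Positions of 31 of the 37 genes were identical to GENCODE M21 (GRCm38). None of the 6 libraries was dropped (0 unused columns of library values). Whether molecular identifiers were used in counting is not given in the sources used here.

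Counts were tested over the whole table with edgeR 4.0.16 in R 4.3.3 (TMM, filterByExpr, quasi-likelihood test, no replicate block), with Benjamini-Hochberg adjustment over 20397 genes. Alternatives were DESeq2 1.42.0, limma 3.58.1 on log2(FPKM + 0.1) where the mean FPKM was 0.1 or more, a pseudocount of 1, TPM, other scalings, no filter, glmTreat against a fold change of 2, a replicate block and leaving out each library. On simulated data with 200 changed genes, edgeR recovered 183 with 14 false calls among 20497 genes, limma 182 with 12 and DESeq2 186 with 33. The simulation gave every gene the same relative spread between libraries and had no outlying library. It therefore checks that the code runs correctly and does not give the error rates of these data. Ratios and shares were compared by exact permutation tests with scipy 1.17.1, and tables and figures were made with Python 3.11.15, pandas 2.3.3, matplotlib 3.10.9 and version 1.17.8 of data.table. The genes, lists and classes were chosen with earlier results of these data known. Library values are given for genes whose mean FPKM reached 1 at either age, and full statistics for the 4 most abundant of each class. From each list acting on collagen the most abundant gene and the called genes with the largest rise and fall (mean FPKM of at least 1 at either age) are named, and from marker lists the most abundant gene. Counts per base of the longest coding transcript were added after seeing the data.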

Additional observations from a re-analysis of the deposited data

How the results depend on the processing

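With all libraries, the number of genes called lower was 20 in edgeR and between 17 and 21 under 9 alternatives, with 0 called higher in each of them. DESeq2, among these, gave no adjusted p-value for Col1a1, Col1a2, Col13a1 and Col22a1 and so could not call them. With 1 library left out, 17 to 22 were lower and 0 to 6 higher, and 17 genes were lower in all 6 of those fits. A log2 fold change above 0 appeared for 5 genes named with their fold change that were below 0 in edgeR with all libraries. Col1a1, Col1a2, Col8a1, Col13a1 and Col22a1 were at 1.06, 1.27, 0.44, 0.72 and 1.47 with limma on FPKM, at 1.04, 1.25, 0.24, 0.30 and 0.58 with a pseudocount of 1, and at 0.63, 0.84, 0.037, 0.36 and 1.24 with TPM. None of these values was called. With 1 library left out Col1a1 ran from −1.38 to 2.56, Col1a2 from −0.91 to 2.66, Col4a1 from −1.47 to 0.21, Col8a1 from −0.51 to 1.27, Col13a1 from −0.73 to 1.98, Col18a1 from −1.67 to 0.029 and Col22a1 from −1.11 to 3.37. The log2 difference of the Col6a1 to Col6a2 ratio ran from −0.050 to 0.020. Against a fold change of 2, Col4a2 (adjusted p = 0.0820) and Col12a1 (adjusted p = 0.0598) were not called by edgeR's glmTreat. TPM moved the median of all genes to −0.33, and the medians for collagen folding and for fibril surface partners to −3.25 and −3.07. The causes of these shifts were not tested.

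Same-numbered libraries of the 2 ages did not deviate together (correlations 0.03, 0.04 and −0.02), so the numbers only name the libraries. With a replicate block 17 genes were lower and 0 higher, Col4a2 and Col12a1 were not called, and Col1a1, Col1a2, Col8a1, Col13a1 and Col22a1 were at 1.29, 1.44, 0.43, 0.89 and 2.05 without a call. Among tested genes, Col26a1, Col6a5, Col6a6 and Col17a1 had at most 25 counts in any 18-month library, which limits the precision of their values. Col28a1 had 9 and 4 counts in 2-month replicates 1 and 3, on which its call without 2-month replicate 2 rests.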

Other observations

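FPKM values of different collagens depend on the length behind them. Counts divided by FPKM gave a length per gene that was 1.14 times the union of all annotated exons in GENCODE M21 (within 5% for 99.0% of 16018 genes). For Col1a2 that union is 12426 bases, against 5348 for its longest coding transcript, and for Col6a2 it is 8326 against 4653. Of the 37 genes, 8 had a union over 1.5 times their longest coding transcript. On counts per base of the longest coding transcript, chosen after seeing the data, the Col1a1 to Col1a2 ratio was 0.606, 0.828 and 0.642 at 2 months and 0.624, 0.574 and 0.577 at 18 months, where FPKM had put Col1a1 above Col1a2 in every library. The Col6a1 to Col6a2 ratio was then 1.33 to 1.46, where FPKM gave 2.22 to 2.45. The log2 difference between the ages was −0.21 and −0.01 for these ratios on both scales. The share of the 37 genes in all collagens was then 18.2% ± 10.2 in young and 86.8% ± 7.40 in old cartilage (SD, n = 3 each).

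Other marker lists differed between the ages in both directions. Genes of erythroid cells, led by Hbb-bs, took 0.0204%, 0.570% and 0.0591% of the counts in 2-month replicates 1, 2 and 3 and 2.38% to 3.17% at 18 months, those of monocytes and macrophages (led by Ly6c2) 0.00135%, 0.0518% and 0.00903% against 0.173% to 0.180%, those of B lymphocytes (led by Jchain) 0.00105%, 0.0277% and 0.00143% against 0.0529% to 0.0645%, and those of marrow stroma and adipocytes (led by Cxcl12) 0.0152%, 0.0571% and 0.0136% against 0.161% to 0.177%. Tendon and synovial fibroblast genes, led by Prg4, took 1.32% to 3.39% at 2 months and 0.151% to 0.717% at 18 months. Of these 12 genes, 7 were called lower and 2 higher, where 21.3% of all genes tested were called lower and 14.9% higher. Mural genes, led by Acta2, took 0.0455% to 0.0626% at 2 months and 0.0194% to 0.0229% at 18 months. These sums follow the most abundant genes. Of the 10 mural genes, 2 were called lower and 0 higher, with a median log2 fold change of −0.13. Without 2-month replicate 2, 2 mural genes were called lower and 5 higher, where 21.3% and 23.3% of all genes then tested were. With all libraries edgeR called higher 2 of 11 erythroid, 3 of 10 monocyte and macrophage, and 1 of 10 B lymphocyte genes. For marrow stroma and adipocytes it called 2 of 10 tested genes higher and 1 lower. The erythroid, B lymphocyte and marrow counts of higher genes were near the 14.9% over all genes tested. In these lists, in the same order, DESeq2 called 8, 6, 1 and 6 genes higher and limma 11, 7, 3 and 5. Their shares over all genes are not given here. Without 2-month replicate 2 edgeR called 11, 10, 9 and 8 higher in these lists, where 23.3% of all genes then tested were called higher. Genes of skeletal muscle, keratinocytes and Schwann cells, led by Tnni2, Krt10 and Mbp, were at 0.0174% of the counts or less in every library.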
